A study of Mus musculus with 6 samples.

Results

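The transmembrane mucins were examined in total RNA-Seq of colonic crypts from mice that serve as a model of Lynch syndrome. Of 6 genes chosen by symbol, 5, *Muc1*, *Muc3*, *Muc3a*, *Muc13* and *Muc20*, were among the 18049 genes of the deposited table, while *Muc4* was not analysed here. All 5 passed the filter on low values and were among the 16670 genes tested. The groups were 3 control libraries from mice that received sterile 20% captisol in PBS and 3 GSK503 libraries from mice that received the EZH2 inhibitor GSK503 at 200 μg/kg body weight, which is described as prepared in sterile PBS. Both groups were injected into the tail vein over a trial of 9 weeks. The mice of both groups shared a *Villin-Cre* transgene, which acts in the intestinal epithelium, a humanized *Tgf*β*RII* knockin, and a Western-style diet from 8 weeks of age. The age of the mice at crypt isolation is not given in the labels. The labels number the libraries as replicates without saying that each came from its own mouse, so p-values measure the spread between these libraries.

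Transmembrane mucins are long, heavily O-glycosylated proteins that span the apical membrane of epithelial cells and form part of the glycocalyx beneath the secreted mucus. Most carry an extracellular domain rich in serine, threonine and proline, a single membrane-spanning segment and a short cytoplasmic tail. In the intestine, the large mucins of the brush border act mainly as a barrier, whereas MUC1 is also known for a tail that binds signaling proteins and for its high abundance in many carcinomas.

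Each value is an estimated CPM, a count scaled to library size, adjusted by the TMM method, with estimated totals between 108162848 and 135085026 counts per library. The 3 counts taken as a floor corresponded to between 0.0228 and 0.0271 CPM, and this covers counting error only. Epithelial markers (*Krt8*, *Epcam* and *Cldn7*) summed to between 6736 and 7748 CPM in the control libraries and between 7254 and 8512 CPM in the GSK503 libraries. X- and Y-linked genes divided the libraries exactly along the groups, since *Xist* lay between 0.419 and 0.936 CPM in the control and between 825 and 1236 CPM in the GSK503 libraries, and *Eif2s3y* was at 0 in all 3 GSK503 libraries against at least 51.3 CPM in every control library. Treatment and sex therefore cannot be told apart in any comparison given here. GSK503 replicate 3 stood apart in its content of other cells, with a summed smooth muscle level of 107 CPM against 4.04 and 4.19 CPM in GSK503 replicates 1 and 2 and between 18.7 and 78.7 CPM in the control libraries.

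The sequences just upstream of the start sites are shown for *Muc1* and *Muc3*, the members whose groups did not overlap, and for *Muc13*, the abundant member whose groups did. Each is the 250 bases before the RefSeq start, read 5′ to 3′ on the gene's strand, with every match to a searched motif in capitals. The *Muc1* window lies at chr3:89136113-89136362 and the *Muc13* window at chr16:33614157-33614406, both on the plus strand and both placed on GRCm39 by an exact match. The *Muc3* window had no exact match on chromosome 5 of GRCm39 and is given on GRCm38.p6, at chr5:137166047-137166296 on the minus strand.
Muc1: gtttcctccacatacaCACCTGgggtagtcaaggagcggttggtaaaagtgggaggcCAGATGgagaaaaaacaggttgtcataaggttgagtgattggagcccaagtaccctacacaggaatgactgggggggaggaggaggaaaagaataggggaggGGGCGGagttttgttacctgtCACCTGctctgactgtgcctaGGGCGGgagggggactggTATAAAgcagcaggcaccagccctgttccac
Muc3: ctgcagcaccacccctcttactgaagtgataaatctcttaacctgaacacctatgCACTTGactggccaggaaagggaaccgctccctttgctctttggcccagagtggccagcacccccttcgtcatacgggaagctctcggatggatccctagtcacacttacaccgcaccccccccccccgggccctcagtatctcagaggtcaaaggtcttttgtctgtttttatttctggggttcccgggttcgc
Muc13: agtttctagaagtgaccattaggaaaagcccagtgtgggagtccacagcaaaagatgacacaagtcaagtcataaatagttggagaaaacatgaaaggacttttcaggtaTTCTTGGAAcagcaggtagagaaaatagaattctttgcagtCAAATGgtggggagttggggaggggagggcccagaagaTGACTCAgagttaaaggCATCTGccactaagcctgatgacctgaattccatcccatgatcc
Motifs searched on both strands were the GC box (GGGCGG), the E-box (CANNTG), the AP-1 site (TGANTCA), the STAT element GAS (TTCNNNGAA) and the TATA box (TATAAA), and none of the matches in these windows overlapped another. The *Muc1* window held a TATA box beginning 31 bases before the start, a sequence found in 12.4% of all 32851 RefSeq windows of this length, and 2 GC boxes, a motif present in 32.7% of them. It also held 3 E-boxes, which occur in 66.2% of windows and are the only motif matched in the *Muc3* window. An AP-1 match was found in 6.75% of all windows and a GAS match in 7.02%, and the *Muc13* window shown held 1 of each beside 2 E-boxes. RefSeq gives *Muc13* another start, whose window at chr16:33614609-33614858 held 1 AP-1 match and 2 E-boxes but no GAS match. The *Muc20* window held 2 E-boxes, and no window was given for *Muc3a*. These are matches of letters and not measured binding sites.

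*Muc1* was lower in the GSK503 libraries than in the control libraries, and it was the only one of the 5 members to pass the test, where 0.144% of all genes tested were called lower and 0.498% higher. No member was called higher. On GRCm39, *Muc1* (ENSMUSG00000042784) occupies positions 89136354 to 89140688 of chromosome 3, plus strand. Measured values were 11.7, 9.83 and 12.6 CPM in control replicates 1, 2 and 3 and 4.36, 4.53 and 6.35 CPM in GSK503 replicates 1, 2 and 3. No GSK503 library reached the lowest control library for this gene, whose upstream window, shown above, holds the TATA box. The mean was 11.4 ± 1.42 CPM (SD, n = 3) in the control and 5.08 ± 1.10 CPM (SD, n = 3) in the GSK503 libraries, which makes the control mean 2.24 times the GSK503 mean. On the log2(value + 0.1) scale the log2FC was -1.16 (standard error 0.18, 95% interval -1.57 to -0.75, adjusted p = 0.0275 from limma), equal to a GSK503 level between 0.336 and 0.595 of the control level. These values rest on between 514 and 1604 estimated counts per library, all whole numbers, so that the counting SD of 2.50% to 4.41% is smaller than the coefficient of variation of 12.5% among control and 21.7% among GSK503 libraries. The adjusted p from limma rose above 0.05 when any library other than GSK503 replicate 3 was left out, reaching 0.145 without GSK503 replicate 2, and was 0.191 without the intensity trend in the variance, while the log2FC stayed between -1.33 and -1.04 over all 17 alternatives. Because these are bulk samples, fewer cells of a type and less RNA per cell cannot be told apart.

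**Figure D1:**
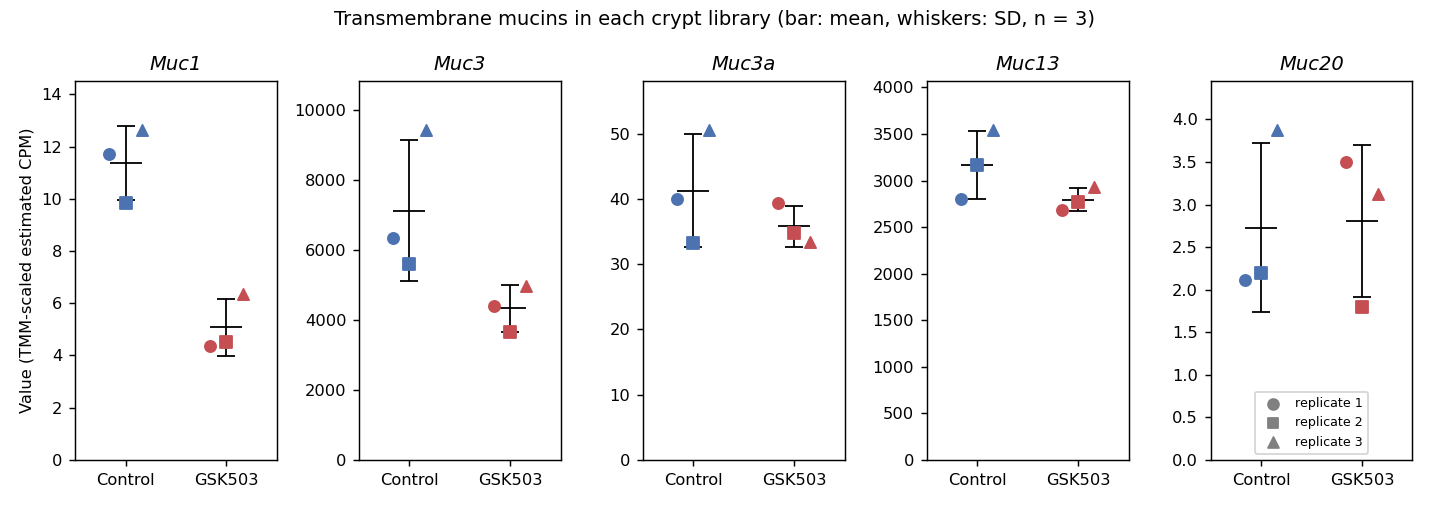
Value of each transmembrane mucin in every library (vertical axis, TMM-scaled estimated CPM, starting at 0), with the mean as a bar and the SD as whiskers (n = 3 per group). Marker shapes give the replicate number, which is not taken to pair libraries. All 3 GSK503 libraries lie below all 3 control libraries for *Muc1* and *Muc3*, and the groups overlap for *Muc3a*, *Muc13* and *Muc20*.

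*Muc3*, which encodes a large mucin of the intestinal brush border, held the most counts of the 5 members, without regard to length, and its groups did not overlap, but the difference did not pass the test. It had 6349, 5612 and 9423 CPM in control replicates 1, 2 and 3 and 4390, 3645 and 4972 CPM in GSK503 replicates 1, 2 and 3. The lowest control library lay above the highest GSK503 library, and control replicate 3 was far above the other two. The mean was 7128 ± 2021 CPM (SD, n = 3) in the control and 4336 ± 665 CPM (SD, n = 3) in the GSK503 libraries, with a log2FC of -0.69 (95% interval -1.20 to -0.18, adjusted p = 0.223 from limma). Without control replicate 3 the log2FC of *Muc3* was -0.47. By value, *Muc3* ranked between 6 and 17 among all genes of a library, with up to 1197593 estimated counts. All GSK503 libraries lay below all control libraries for 2 of the 5 members, *Muc1* and *Muc3*, as they did for 9.22% of all genes tested. The reverse, seen for 9.84% of all genes tested, held for no member.

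The symbol *Muc3* is not in the GENCODE vM39 annotation of GRCm39, so no position or length is given for it on that build. In RefSeq it is the gene next to *Trim56* on chromosome 5, on the side of *Muc3a*, and the gene at this place in GENCODE is *Muc17*. *Muc3a* (ENSMUSG00000094840) is a short gene on the minus strand of chromosome 5 from 137243270 to 137246852. Its value was 40.0, 33.3 and 50.5 CPM in control replicates 1, 2 and 3 and 39.4, 34.8 and 33.4 CPM in GSK503 replicates 1, 2 and 3. The GSK503 libraries all lay within the range of the controls. The log2FC of *Muc3a* was -0.19 (95% interval -0.51 to 0.13, adjusted p = 0.616 from limma), and it was -0.031 without control replicate 3. The estimated counts of *Muc3* and *Muc3a* were whole numbers in all 6 libraries to within 0.02 of a count, so neither held a fraction of a read.

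*Muc13* encodes a smaller transmembrane mucin that is abundant on the apical surface of the colon. It (ENSMUSG00000022824) lies on the plus strand of chromosome 16 from 33614407 to 33640304. It had 2801, 3163 and 3538 CPM in control replicates 1, 2 and 3 and 2688, 2765 and 2935 CPM in GSK503 replicates 1, 2 and 3. GSK503 replicates 1 and 2 were below every control library, and GSK503 replicate 3 was above control replicate 1. The log2FC was -0.17 (95% interval -0.48 to 0.13, adjusted p = 0.628 from limma), an interval that reaches from 0.716 to 1.10 of the control level. No difference in *Muc13* beyond the spread between libraries was found, although it had at least 317095 estimated counts in each. These counts were not whole in any library.

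*Muc20*, a mucin whose human counterpart binds the receptor MET, had the lowest level per kilobase among the 4 members with a known exon length and showed no difference larger than its spread. The gene (ENSMUSG00000035638) lies on the minus strand of chromosome 16 from 32597793 to 32617831. It had 2.11, 2.19 and 3.87 CPM in control replicates 1, 2 and 3 and 3.51, 1.80 and 3.12 CPM in GSK503 replicates 1, 2 and 3. The highest value was in the control and the lowest in the GSK503 group, with the other values mixed between them. Its log2FC of 0.045 (95% interval -0.68 to 0.77, adjusted p = 0.969 from limma) turned to -0.065 when values were scaled by library size alone. The interval of *Muc20* is the widest of the 5. Its estimated counts, between 226 and 492, were not whole in any library, and in GENCODE it overlaps *Muc4* on the opposite strand.

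**Figure D2:**
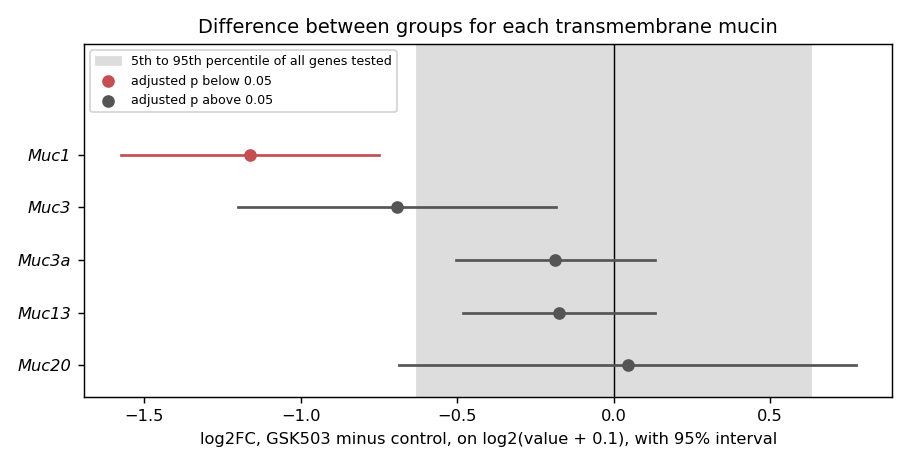
log2FC of each transmembrane mucin (horizontal axis, GSK503 minus control on log2(value + 0.1); points with 95% intervals from limma), over a grey band from the 5th to the 95th percentile of all genes tested, -0.63 to 0.63. The interval of *Muc1* lies wholly below the band, that of *Muc3* crosses its edge, and those of *Muc3a*, *Muc13* and *Muc20* include 0.

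Of the 5 members, 4 had a lower mean and 1 a higher mean in the GSK503 libraries, with a median log2FC of -0.19 against -0.0053 over all 16670 genes tested. Over all genes tested, 8511 had a lower and 8159 a higher mean. Among the 16670 genes, limma called 83 with a higher and 24 with a lower level. When values were scaled by library size alone, the calls were 83 higher and 178 lower around a median log2FC of -0.12. Control replicate 3 had the highest value of the control group for all 5 members. Added together, the 5 members took 0.937%, 0.902% and 1.34% of all values in control replicates 1, 2 and 3 and 0.668%, 0.600% and 0.768% in GSK503 replicates 1, 2 and 3. These summed levels did not overlap between the groups, and an exact two-sided permutation test gave p = 0.1, the smallest that 3 libraries against 3 allow. The sum is almost wholly *Muc3* and *Muc13*, so it says little about *Muc1*.

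Ratios taken within a library are nearly independent of how libraries are scaled. Relative to the mean log2 level of the epithelial markers, *Muc1* stood at -7.12, -7.32 and -6.90 in control replicates 1, 2 and 3 and at -8.63, -8.55 and -7.90 in GSK503 replicates 1, 2 and 3. The difference in this log2 ratio was -1.25 (exact two-sided permutation p = 0.1, and 0.25 after Benjamini-Hochberg adjustment over the 5 members), so *Muc1* was lower relative to epithelial RNA as well. *Muc3* was lower by -0.78 relative to the same markers, again without overlap (exact permutation p = 0.1), whereas the groups overlapped for *Muc13* (exact permutation p = 0.2) and *Muc3a* (exact permutation p = 0.3). Of the 10 pairs of members, 7 had log2 ratios that did not overlap between the groups, namely all pairs that include *Muc1* or *Muc3* (exact permutation p = 0.1 for each, 0.143 adjusted over the 10 pairs). The levels of *Muc1* and *Muc3* themselves did not overlap, so these pairs reuse the same genes and are not separate results. How often pairs of other genes separate the groups was not counted. The log2 ratio of *Muc1* to *Muc13* was -8.11 ± 0.21 (SD, n = 3) in the control and -9.10 ± 0.23 (SD, n = 3) in the GSK503 libraries. The log2 ratio of *Muc1* to *Muc3* differed by -0.47 between the groups. *Muc3* exceeded *Muc13* by 2.27, 1.77 and 2.66 times in control replicates 1, 2 and 3 and by 1.63, 1.32 and 1.69 times in GSK503 replicates 1, 2 and 3. In contrast, the log2 ratio of *Muc3a* to *Muc13* differed by -0.013 between the groups.

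**Figure D3:**
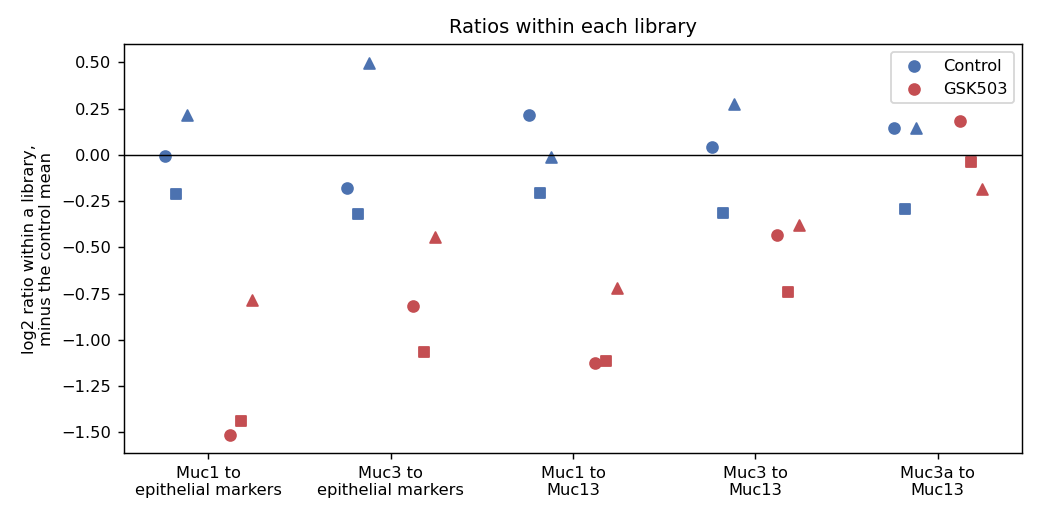
log2 ratio within each library (vertical axis, minus the mean of the control libraries) of *Muc1* and *Muc3* to the mean of *Krt8*, *Epcam* and *Cldn7*, and of *Muc1*, *Muc3* and *Muc3a* to *Muc13*; each point is 1 library. The groups are apart in the ratios of *Muc1* and *Muc3* and mixed in the ratio of *Muc3a* to *Muc13*, which differed by -0.013.

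As a share of the summed signal of the 5 members, *Muc1* made up 0.112% ± 0.0152 (SD, n = 3) in the control and 0.0704% ± 0.00935 (SD, n = 3) in the GSK503 libraries. *Muc3* made up 68.3% ± 4.39 (SD, n = 3) of the sum in the control and 60.2% ± 3.25 (SD, n = 3) in the GSK503 libraries. The share of *Muc13* was 31.1% ± 4.40 (SD, n = 3) in the control and 39.2% ± 3.22 (SD, n = 3) in the GSK503 libraries. For *Muc1*, *Muc3* and *Muc13* the shares did not overlap between the groups (exact two-sided permutation p = 0.1 for each, 0.167 adjusted over the 5 members). The higher share of *Muc13* came with no higher level of *Muc13*, since shares of a sum must add up.

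Levels between genes were compared per kilobase of exon, using GENCODE vM39 exon lengths, for the 4 members with a matched gene. *Muc13* had 1043 ± 121 CPM per kilobase (SD, n = 3) in the control libraries and ranked 20 of 17212 genes. *Muc3a* followed with 21.9 ± 4.60 CPM per kilobase (SD, n = 3), *Muc1* with 4.83 ± 0.604 (SD, n = 3) and *Muc20* with 0.672 ± 0.245 (SD, n = 3). In the GSK503 libraries the per-kilobase level of *Muc1* was 2.16 ± 0.468 CPM (SD, n = 3) and that of *Muc20* 0.693 ± 0.221 CPM (SD, n = 3). The order *Muc13*, *Muc3a*, *Muc1*, *Muc20* held in all 6 libraries, with no overlap between neighbors.

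**Figure D4:**
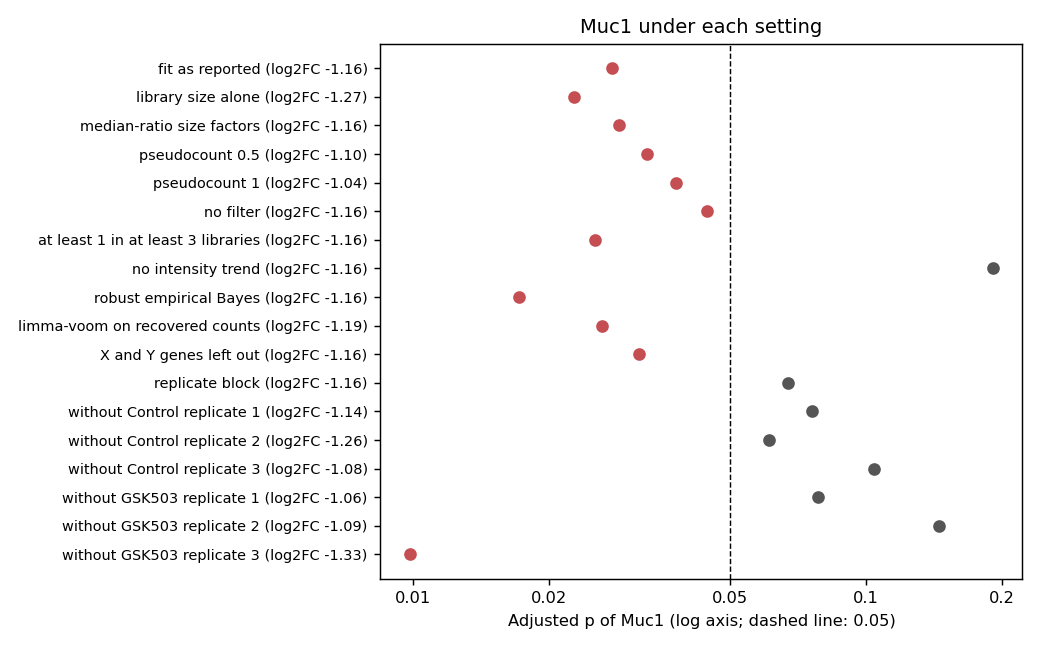
Adjusted p of *Muc1* from limma (horizontal log axis, dashed line at 0.05) under each setting, with the log2FC of *Muc1* beside its name; red points are below 0.05. The log2FC lies between -1.33 and -1.04 throughout, and the adjusted p ranges from 0.00982 without GSK503 replicate 3 to 0.191 without the intensity trend.

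Genes whose levels followed those of a member most closely were listed by Pearson's r of log2(value + 0.1) over the 6 libraries, among 12796 genes with a mean of at least 1 CPM. With 6 libraries in 2 groups such values are high for many genes, and they are given as a description only. *Muc1* was closest to *Ltf*, which encodes the antimicrobial protein lactotransferrin, with an r of 0.995, followed by *Isoc1* and *Pla2g4a* at 0.993 and 0.992. *Ltf* had a log2FC of -1.49 (adjusted p = 0.0474 from limma), and 259 genes had an r above 0.9 with *Muc1*. For *Muc3* the closest genes were *Mterf1a*, *Zzz3* and *Acer2*, with r between 0.995 and 0.998, and none of these had an adjusted p below 0.05. *Muc3a* was closest to *Zgrf1*, *Mob3b* and *Clmn*, *Muc13* to *Gm10384*, *Med1* and *Osmr*, and *Muc20* to *Rnf148*, *Ecm2* and *ND6*.

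Genes of related function were taken from 8 lists with 81 genes, of which 70 were tested. None had an adjusted p below 0.05 from limma, 14 had an unadjusted p below 0.05, and limma-voom on the recovered counts called 1, *Foxa2*. Over all 16670 genes tested, limma called 0.642% in either direction, and 2223 had an unadjusted p below 0.05. The counts of unadjusted p given below for each list are to be read beside that number. For the 70 genes the median log2FC was -0.018. The groups did not overlap for 16 of the 70, 8 lower and 8 higher, where 19.1% of all genes tested did not overlap.

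Other membrane-bound mucins with values, 5 of the 8 listed, were low or even between the groups. The symbols *Muc12*, *Muc15* and *Muc17* were not among the genes with values, so nothing is given under them here. By gene order, *Muc17* in GENCODE is at the place of *Muc3* in RefSeq. Whether the values given as *Muc3* are those of *Muc17* was not tested. *Muc16*, a very long mucin of wet-surfaced epithelia, had 4.45, 2.32 and 3.98 CPM in control replicates 1, 2 and 3 and 8.23, 3.19 and 3.50 CPM in GSK503 replicates 1, 2 and 3, and these values overlapped (adjusted p = 0.714 from limma). *Cd164*, a widely expressed sialomucin, had 174 ± 6.33 CPM (SD, n = 3) in the control and 176 ± 8.48 CPM (SD, n = 3) in the GSK503 libraries. *Mcam* and *Emcn*, both found on endothelial cells, were highest in GSK503 replicate 3, at 1.23 and 0.508 CPM. *Muc21* was too low to be tested, with at most 0.167 CPM. Among the secreted gel-forming mucins, *Muc5ac* stayed below 0.475 CPM and *Muc5b* below 0.541 CPM in every library, and *Muc2* was not analysed here.

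Receptors and cytoplasmic proteins known to bind transmembrane mucins had a lower mean in the GSK503 libraries for 9 of 11 tested genes, with a median log2FC of -0.15 and none called by limma (3 had an unadjusted p below 0.05, and limma-voom called 0). Of all 16670 genes tested, 8511 had a lower mean. All GSK503 libraries lay below all control libraries for 4 of the 11, as they did for 9.22% of all genes tested. *Erbb2*, the receptor to which MUC4 binds, had 179, 192 and 184 CPM in control replicates 1, 2 and 3 and 157, 155 and 142 CPM in GSK503 replicates 1, 2 and 3. *Grb2*, an adaptor that binds the phosphorylated tail of MUC1, had 32.7 ± 2.11 CPM (SD, n = 3) in the control and 26.1 ± 1.07 CPM (SD, n = 3) in the GSK503 libraries. Neither gene overlapped between the groups, and neither passed (adjusted p = 0.116 and 0.148 from limma). *Ctnnb1*, which encodes the β-catenin that associates with the MUC1 tail, had a log2FC of -0.0049 (95% interval -0.19 to 0.18 from limma).

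The list of galectins, lectins that bind mucin glycans, also held *Lgals3bp*, which is not itself a galectin. Of its 7 genes, 4 had a lower mean and none was called by limma, with 1 at an unadjusted p below 0.05 and 0 called by limma-voom. That gene was *Lgals2*, with 1.52 ± 0.239 CPM (SD, n = 3) in the control and 3.11 ± 0.831 CPM (SD, n = 3) in the GSK503 libraries (log2FC 0.97, adjusted p = 0.15 from limma). *Lgals3bp*, which encodes a galectin-binding glycoprotein, had a log2FC of -0.20 (adjusted p = 0.389 from limma). Proteases that release mucin ectodomains or cut within the membrane had 7 of 12 genes with a lower mean and a median log2FC of -0.012, with none called by limma or limma-voom and 2 at an unadjusted p below 0.05. *Adam10* had a log2FC of -0.31 (adjusted p = 0.291 from limma), and *Psenen*, a subunit of γ-secretase, had a log2FC of 0.20 (adjusted p = 0.312 from limma).

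PDZ and apical trafficking proteins had 5 of 9 tested genes with a lower mean, none called by limma or limma-voom and 4 at an unadjusted p below 0.05. *Slc9a3r2*, a PDZ scaffold, had a log2FC of 0.54 (adjusted p = 0.212 from limma). Microvillus proteins had a higher mean in 8 of 12 genes, with a median log2FC of 0.073, none called by limma or limma-voom and 2 at an unadjusted p below 0.05. Those were *Espn* and *Vil1*, which encode bundlers of microvillus actin, with a log2FC of 0.41 and 0.21 (adjusted p = 0.106 and 0.363 from limma). Among 13 epithelial transcription factors and STATs, limma called none and 2 had an unadjusted p below 0.05. *Foxa2*, a factor of endodermal and goblet cell differentiation, had a log2FC of 0.48 (adjusted p = 0.0505 from limma), and *Sp1*, a factor that binds GC boxes, had a log2FC of -0.28 (adjusted p = 0.307 from limma).

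**Figure D5:**
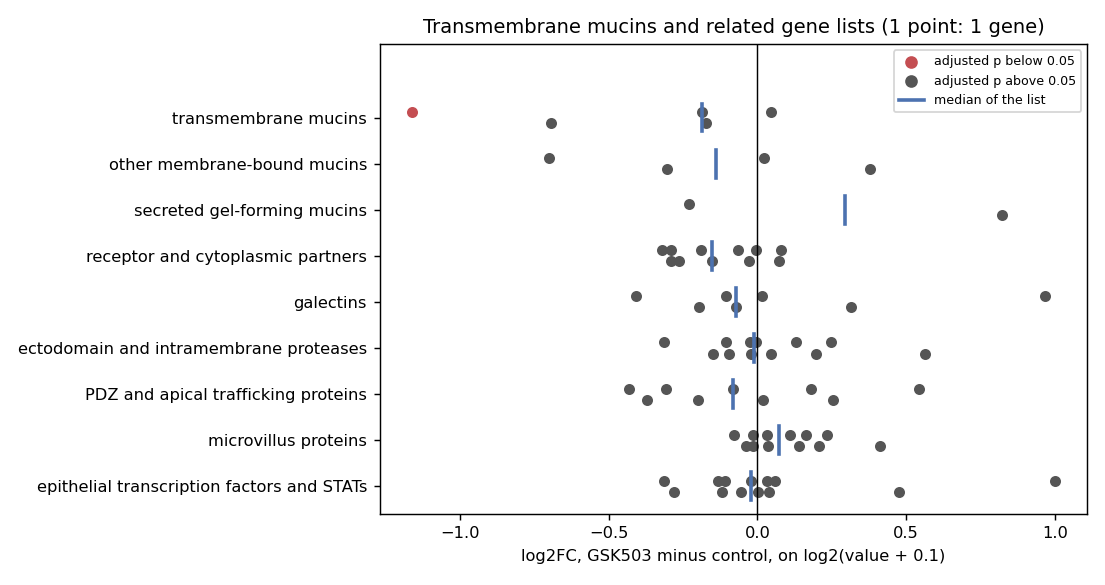
log2FC of each tested gene (horizontal axis, GSK503 minus control on log2(value + 0.1)) for the transmembrane mucins and the 8 related lists; each point is 1 gene, the blue line is the median of the list, and red marks an adjusted p below 0.05 from limma. *Muc1*, at -1.16, is the only red point and lies lowest of all genes shown.

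Several cell markers also differed between the groups, some higher and some lower, and their part in the level of *Muc1* was not tested. All 8 goblet cell markers were higher in every GSK503 library than in every control library. Their summed level was between 10845 and 19180 CPM in the control and between 33294 and 51612 CPM in the GSK503 libraries. Of them, 4, *Clca1*, *Tff3*, *Spink4* and *Spdef*, rose at an adjusted p below 0.05 from limma, and limma-voom called 5. All 8 immediate early genes were lower in every GSK503 library, and *Egr1*, *Dusp1* and *Atf3* fell at that threshold in limma. All 6 enteroendocrine markers had a lower mean, and *Chga*, *Chgb* and *Gcg* fell at an adjusted p below 0.05 from limma. Absorptive colonocyte markers, by contrast, overlapped between the groups, with a sum between 3768 and 3907 CPM in the control and between 2839 and 6287 CPM in the GSK503 libraries, and none of the 8 was called by limma or limma-voom, while 2 had an unadjusted p below 0.05. Stem cell markers summed to between 291 and 309 CPM in the control and between 265 and 321 CPM in the GSK503 libraries. B cell markers summed to 3.25, 1.90 and 61.1 CPM in GSK503 replicates 1, 2 and 3 against 21.6 to 72.2 CPM in the control libraries, and macrophage markers to 56.0, 57.8 and 87.3 CPM against 77.2 to 104 CPM. The high sum in GSK503 replicate 3 was *Jchain*, at 57.9 CPM, a gene of plasma cells. *Ms4a1* (0.195, 0.0637 and 0.0915 CPM) and *Cd79b* (0.110, 0.319 and 0.333 CPM) were lower in GSK503 replicates 1, 2 and 3 than in every control library, where the lowest values were 0.449 and 0.590 CPM. *Cd79a* was at 0 in GSK503 replicate 2, and none of the 5 B cell markers was called by limma or limma-voom, while 3 had an unadjusted p below 0.05. Tuft cell markers summed to between 22.7 and 34.3 CPM in the control and between 43.1 and 49.5 CPM in the GSK503 libraries, with 4 of 4 higher in the mean, 3 at an unadjusted p below 0.05 and none called by limma or limma-voom. T cell markers overlapped between the groups and lay between 10.6 and 13.4 CPM in the GSK503 libraries, and endothelial markers lay between 3.16 and 5.13 CPM in the control against 1.64 and 7.95 CPM in the GSK503 libraries. Fibroblast markers summed to between 204 and 262 CPM in the control and between 265 and 371 CPM in the GSK503 libraries, a sum made up mostly of *Gsn*, which had a higher level in every GSK503 library. The log2FC of *Col1a1* was -0.52 and that of *Col3a1* -0.67, and the groups overlapped for both. Within the GSK503 group, *Muc1* was lower in replicates 1 and 2, which had little smooth muscle RNA, than in replicate 3. Within the control group *Muc1* was lowest in replicate 2, at 9.83 CPM, where summed smooth muscle was highest, at 78.7 CPM. A link between these levels was not tested. Without GSK503 replicate 3 the log2FC of *Muc1* was -1.33 (adjusted p = 0.00982 from limma).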

How the data were processed

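Total RNA-Seq libraries of colonic crypts, 3 control and 3 GSK503, were grouped by the sample labels. The authors aligned paired-end 76 bp reads to GRCm39 with STAR, estimated counts with RSEM and applied TMM scaling, and they deposited this signal, estimated CPM, for 18049 genes. The gene annotation and any filter applied by the authors are not given in the sources used here. Between 75.8% and 78.6% of the values above 0 were whole multiples of a library's step, the worth of 1 count, from which the totals were estimated. The library totals, at least 108162848 counts, limit precision only for low genes.

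Because the deposited values are scaled and not raw counts, a count model was not used, and limma (version 3.58.1, R 4.3.3) was fitted to log2(value + 0.1) for the 16670 genes with at least 0.1 CPM in at least 3 libraries, with an intensity trend and Benjamini-Hochberg adjustment over all of them, and genes were called at an adjusted p below 0.05. The fit was tested on simulated data. Intervals are 95% intervals from limma. Shares and ratios within a library were compared by exact two-sided permutation. The members and lists were chosen with earlier results of these data known. In each list, the genes called and the 2 with the smallest p were named, and for each member the 3 genes with the highest r; other genes of these lists that are named, *Cd164*, *Emcn*, *Muc21*, *Ctnnb1*, *Jchain*, *Cd79a* and *Col1a1*, were chosen after their values were seen. A gene of these lists and an allele of the mice are not reported here. Symbols were matched to GENCODE vM39, and 95.36% matched 1 gene. Promoter windows came from RefSeq (GRCm38.p6). Alternatives were other scalings, pseudocounts, filters and variance models, limma-voom on recovered counts, X and Y genes left out, a replicate block and leaving out each library. Python 3.11.15, pandas 2.3.3 and scipy 1.17.1 were used. No 2 libraries held an identical value above 0 for any gene.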

Additional observations from a re-analysis of the deposited data

How the results depend on the processing

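*Muc1* kept its direction under all 17 alternatives and its adjusted p stayed below 0.05 in 10 of them. It was not called without the intensity trend (log2FC -1.16, adjusted p = 0.191 from limma) or with the replicate block (log2FC -1.16, adjusted p = 0.0674 from limma), which left 0 members called under both. With each library left out in turn the log2FC of *Muc1* lay between -1.33 and -1.06, its adjusted p from limma between 0.00982 and 0.145, and the number of members called between 0 and 1, with fewer libraries in each fit. It was called only without GSK503 replicate 3. The other 4 members were called under none of the alternatives by limma or limma-voom. *Muc20* changed sign with library size alone as the scaling (log2FC -0.065), and with a library left out it lay between -0.14 and 0.33. *Muc3*, *Muc3a* and *Muc13* kept their sign.

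The number of genes called, 107 in the fit as reported, was 261 with library size alone, 70 with no filter, 16 without the intensity trend, 33 with the replicate block and between 30 and 229 with each library left out in turn; the cause was not tested. The replicate numbers were not taken to pair the libraries, because the labels state no pairing. Deviations of same-numbered libraries from their group means correlated at 0.0322, -0.126 and -0.119, and no library correlated best with its own number. With so few libraries per group these correlations cannot exclude a pairing. The difference of *Muc1* relative to the epithelial markers lay between -1.48 and -1.11 with each library left out in turn, and that of its share of the summed signal between -0.0489 and -0.0337 percentage points. A difference in *Muc20* smaller than its spread between libraries was not detectable. Its coefficient of variation was 36.4% among control and 31.9% among GSK503 libraries, larger than its counting SD of 4.51% to 6.65%.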
